A study of Arabidopsis thaliana with 12 samples.

Results

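Whole seedlings of the Arabidopsis thaliana line bbx28-5 were compared with the accession Col-0 in white light, before any shade was given. The comparison used 6 of the 12 RNA sequencing libraries, 3 biological replicates of each genotype, and the libraries were chosen by their genotype and light labels and not by any measured value. Seeds were sown on agar and water and kept for 2 days under a cycle of 10 h light and 14 h dark. On the next day both genotypes stayed in white light for 4 h, with 90 µmol of photosynthetically active photons per square metre and second. The other 6 libraries came from seedlings of the same 2 genotypes given 4 h of simulated shade at 20 µmol in the same unit. Red, blue and far-red light were 9.13, 8.1 and 8.3 µmol in white light and 0.8, 1.3 and 5.5 µmol in shade. The shade libraries are used below as a separate set in which to look again at the white light differences. The series asked how BBX28 affects the transcriptional response to shade. bbx28-5 is a single line, and what its lesion is was not stated in the labels.

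BBX28 belongs to the B-box zinc finger proteins, a family of regulators of seedling development in light. BBX28 is known to bind HY5, a transcription factor that promotes light-driven development, and to restrain it, and the ubiquitin ligase component COP1 targets BBX28 for degradation. A young seedling on agar and water lives at first on the proteins and oils stored in its seed, then builds its photosynthetic apparatus and takes up mineral nutrients through a root whose inner layers are sealed by Casparian strips and suberin.

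The 6 libraries held 10.952 to 13.995 M counts each, and a floor of 3 counts corresponded to 0.213 to 0.276 counts per M of the scaled library size (CPM). Libraries of a group correlated at 0.987 to 0.9919 on the log2 CPM scale, and each library held 100 to 188 genes at least 2-fold from the mean of its group mates. Col-0 replicate 3 stood high for genes of abscisic acid and cold, which are given with their values below. Markers of root and shoot were both detected, as the label of whole seedlings implies, with the root glucosidase gene PYK10 at 2950 to 3780 CPM and the antenna gene LHCB1.4 at 1650 to 3400 CPM. Of 19360 genes tested with edgeR's quasi-likelihood test on these 6 libraries, 5093 differed at an adjusted p under 0.05, or 26.3%. Higher in bbx28-5 were 2392 genes, or 12.4%, and lower were 2701, or 14.0%. At least 2-fold higher were 134 genes, or 0.692%, against 529 at least 2-fold lower, or 2.73%, together 3.42% of the tested genes. The libraries of the 2 genotypes did not overlap in 7742 genes, or 40.0%. Large differences were therefore mostly decreases, although the median log2 change over all genes was 0.0003. These shares are the background against which the counts of each gene list below are to be read.

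Some of these counts moved with the processing. With offsets that take out a trend of counts on transcript length, 57.6% of the called genes were higher in bbx28-5, against 47.0% without them. In the longest transcripts, of 2527 bases or more, 16.5% of genes were called higher and 8.75% lower, and in the shortest, of up to 1153 bases, 9.76% and 16.7%. In a fit of all 12 libraries, whose spread also comes from the shade libraries, 1947 genes passed, 749 higher and 1198 lower, of which 1938 were among the 5093. Called genes were spread over the chromosomes, from 25.2% to 28.2% of the tested genes of each, and within 1000 kb of BBX28 126 of 439 genes were called, or 28.7%.

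**Figure D1:**
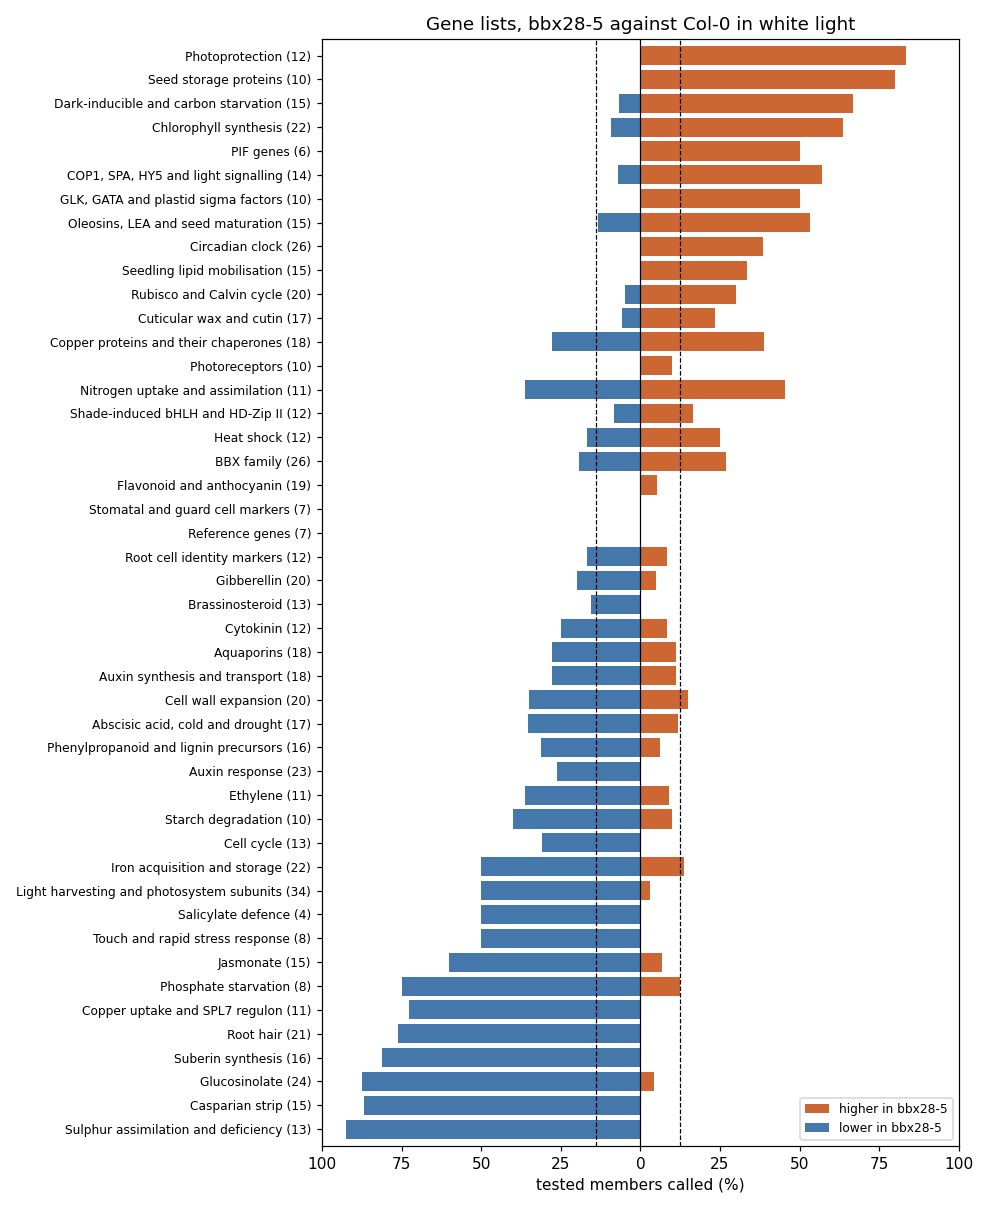
Share of the tested members of each gene list that were called higher (right) or lower (left) in bbx28-5 in white light, in percent, with the number tested in brackets. Dashed lines mark the background over all tested genes, 12.4% higher and 14.0% lower.

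BBX28 transcript was higher, not lower, in the line that carries the bbx28-5 name. It measured 77.8, 79.5 and 68.5 CPM in the Col-0 libraries and 116, 112 and 107 CPM in bbx28-5, without overlap. The difference was 0.57 ± 0.0652 log2 units (SE, n = 3 per group, adjusted p = 4.16e-06), and it remained called without any single library. The shade libraries gave the same 0.57 ± 0.145 (adjusted p = 0.0274). As the lesion is not given, the level does not test the genotype label.

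The copper genes held some of the clearest differences between the genotypes. In plants short of copper the transcription factor SPL7 turns on genes for copper reduction and uptake, and with them microRNAs of the miR398 family, which lower the transcripts of copper proteins that the plant can spare. Of 11 tested genes for copper uptake and of the SPL7 regulon, 8 were lower in bbx28-5 and none higher, with a median log2 change of -1.46. SPL7 itself stood at 36.7 ± 0.948 CPM in Col-0 and 37.1 ± 1.47 in bbx28-5 (SD, n = 3), a log2 difference of 0.01 ± 0.0664 (SE) that did not pass.

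The reductase and transporter genes fell furthest. FRO5, a ferric and cupric reductase gene, measured 55.4, 29.8 and 24.6 CPM in Col-0 and 2.92, 1.22 and 0.919 CPM in bbx28-5. Its lowest Col-0 library was thus well above its highest bbx28-5 library, and the log2 difference was -4.38 ± 0.332 (adjusted p = 2.53e-08). FRO4, the neighbouring gene of the same family, went from 7.97 ± 1.44 to 0.726 ± 0.154 CPM (-3.43 ± 0.243, adjusted p = 1.11e-08). FRO4 and FRO5 are close copies, and how reads that match both were counted is not given. AT1G71200, annotated as a basic helix-loop-helix DNA-binding protein, measured 6.09, 5.76 and 5.4 CPM in Col-0 and 0.584, 0.0811 and 0.551 CPM in bbx28-5 (log2 -3.79 ± 0.319, adjusted p = 9.17e-08). FRO4 and AT1G71200 passed the expression filter through their Col-0 libraries, so they were tested only because they were high there. The count and median of this copper list describe the members tested and do not test the list. COPT2, a copper transporter of the plasma membrane, measured 17.9, 14.4 and 12.7 CPM in Col-0 and 1.9, 2.84 and 2.48 CPM in bbx28-5. All 3 bbx28-5 values lay under every Col-0 value, with a log2 difference of -2.65 ± 0.176 (adjusted p = 4.79e-09). ZIP2, a metal transporter, differed by -2.36 ± 0.12 and YSL2, a transporter of metals bound to nicotianamine, by -1.46 ± 0.101. The copper transporter genes COPT1 and COPT6 did not pass, at 0.16 ± 0.0665 and 0.14 ± 0.0935.

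FSD1 and CCH completed the set of falls. FSD1, an iron superoxide dismutase that takes the place of the copper enzymes when copper is short, measured 1270, 1200 and 1330 CPM in Col-0 and 553, 481 and 525 CPM in bbx28-5. Its difference of -1.29 ± 0.0558 (adjusted p = 1.31e-11) rested on tight groups. CCH, a copper chaperone, went from 382 ± 2.95 to 186 ± 26.8 CPM (-1.04 ± 0.075, adjusted p = 1.42e-08).

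The transcripts that miR398 is known to target went the other way. CSD2, the copper/zinc superoxide dismutase of the chloroplast, measured 42.0, 52.1 and 40.7 CPM in Col-0 and 442, 523 and 463 CPM in bbx28-5, a 10.6-fold difference of means. At 3.41 ± 0.0846 log2 units (adjusted p = 1.09e-14) it was the largest rise outside seed genes among the 10 largest rises. CSD1, the cytosolic enzyme, measured 30.6, 35.3 and 27.1 CPM in Col-0 and 144, 158 and 136 CPM in bbx28-5 (2.24 ± 0.0834, adjusted p = 2.26e-12). CCS, the chaperone that loads copper into both enzymes, measured 23.5, 26.8 and 23.1 CPM in Col-0 and 117, 140 and 117 CPM in bbx28-5 (2.35 ± 0.0826, adjusted p = 9.65e-13). AT3G15640, annotated as a rubredoxin-like protein, differed less, with 44.5, 42.0 and 40.7 CPM against 56.8, 57.1 and 51.0 CPM (0.38 ± 0.0673, adjusted p = 0.000372). CSD3, the peroxisomal copper/zinc superoxide dismutase, is not known as a target and measured 20.8 CPM in both genotypes (SD 2.83 and 1.6, log2 difference under 0.01 in size, adjusted p = 0.989).

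The microRNA and the window it best matches in each of these transcripts are shown so that the pairing can be read beside the levels. The sequences are from RefSeq, assembly TAIR10.1, written 5′ to 3′. Capitals mark bases 2 to 8 of the microRNA, its seed, and the bases that face the seed in each window.
miR398b-3p and miR398c-3p: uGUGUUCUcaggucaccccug
miR398a-3p: uGUGUUCUcaggucaccccuu
CSD1 window: aagggguuuccugAGAUCACa
CSD2 window: ugcgggugaccugGGAAACAu
CCS window: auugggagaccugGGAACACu
AT3G15640 window: aaggugugaccugAGAAUCAc
CSD3 window: uagaggaaaucugAGAGCGGu

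Each window is the best match without gaps to miR398b-3p over the whole spliced transcript, scored with more weight on pairs at the 5′ end of the microRNA. The CSD1 window, at chr1:2827177-2827685 on the plus strand, spans an intron, lies outside the coding sequence and has 4 mismatches and no G:U pair. The CSD2 window, at chr2:12015572-12015592 on the plus strand in the coding sequence, has 5 mismatches and 3 G:U pairs. The CCS window, at chr1:4267521-4267541 on the minus strand in the coding sequence, has 5 mismatches and 1 G:U pair. The AT3G15640 window, at chr3:5299204-5299224 on the plus strand outside the coding sequence, has 5 mismatches and 1 G:U pair as well. That of CSD3, at chr5:5987232-5987252 on the plus strand in the coding sequence, has 5 mismatches and 4 G:U pairs. A match is a description and not a measured site. The precursor genes of miR398b and miR398c were listed at 0 in all 6 libraries, and these libraries do not measure mature microRNAs.

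Copper proteins and their chaperones went in both directions. Of 18 tested genes 7 were higher and 5 lower, with a median of -0.04. CSD1, CSD2, CCS and AT3G15640 were 4 of the 7 higher members. PAA1 and PAA2, the copper pumps of the chloroplast envelope and the thylakoid, were higher by 0.40 ± 0.0697 and 0.24 ± 0.0599, a call that PAA2 lost in the fit of all 12 libraries. ARPN, annotated as plantacyanin, a copper protein, went from 2.23 ± 0.383 to 4.35 ± 0.506 CPM (0.95 ± 0.208, adjusted p = 0.00211). The laccase gene LAC13 was lower by 0.94 log2 units (-0.94 ± 0.15, adjusted p = 0.000132) and ATX1, a cytosolic copper chaperone, differed by -0.42 ± 0.0564, a call lost in the fit of all 12 libraries. PETE2, the main plastocyanin gene, did not pass (-0.04 ± 0.0449), and PETE1 differed by -0.21 ± 0.0528, a call lost in that fit and with transcript length offsets. COPT5, a copper transporter of internal membranes, and the laccase gene LAC17 completed the lower members, at -0.37 ± 0.107 and -0.35 ± 0.115, with calls lost in the fit of all 12 libraries, with transcript length offsets and without several single libraries.

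**Figure D2:**
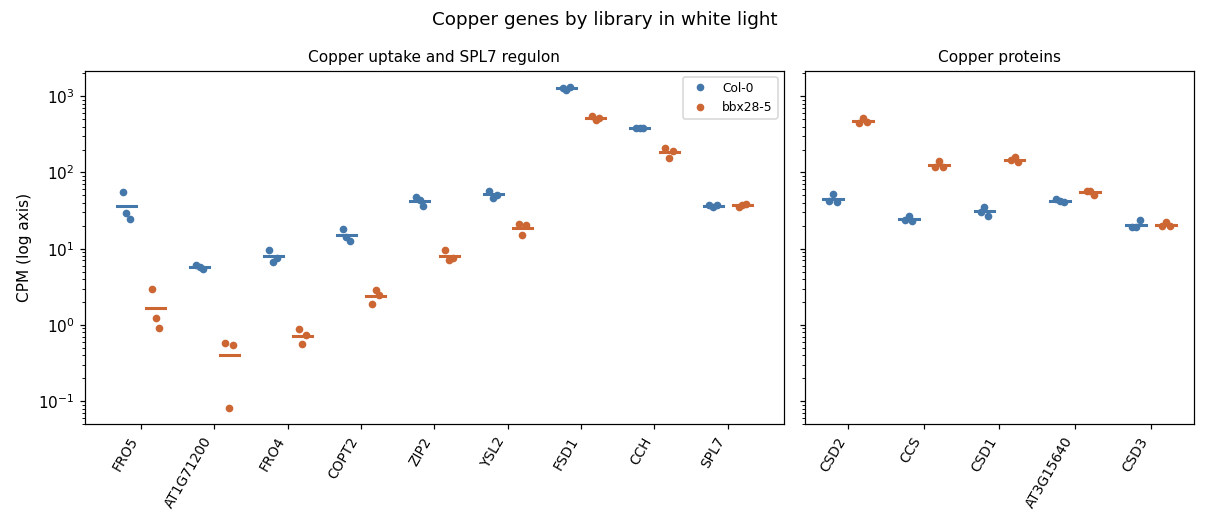
CPM per library on a log axis for genes of copper uptake and the SPL7 regulon (left) and for transcripts known as miR398 targets with CSD3 (right), 3 Col-0 and 3 bbx28-5 libraries in white light, horizontal bars at the group means. FRO5 falls from 36.6 to 1.68 CPM and CSD2 rises from 44.9 to 476 CPM, while SPL7 and CSD3 show overlapping groups.

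Upstream windows were searched for GTAC, the core of the sequence that SPL7 is known to bind. The motif reads the same on both strands, and a window is the 300 bases before the annotated start of a gene. GTAC occurred in 39.7% of the windows of all 27443 protein-coding genes, in 40.2% of those tested here, in 6 of the 12 genes of the copper list and in 5 of its 8 lower members. COPT2, FRO4 and FRO5 have none in this window, which says only that these letters are not there. The windows of YSL2, with 4 copies, ZIP2, with 3, and FSD1, with 1, are shown for the spacing of the motif, with each GTAC in capitals (TAIR10.1, read 5′ to 3′ towards the gene, at chr5:8323595-8323894 plus, chr5:23992909-23993208 minus and chr4:12887012-12887311 minus).
YSL2: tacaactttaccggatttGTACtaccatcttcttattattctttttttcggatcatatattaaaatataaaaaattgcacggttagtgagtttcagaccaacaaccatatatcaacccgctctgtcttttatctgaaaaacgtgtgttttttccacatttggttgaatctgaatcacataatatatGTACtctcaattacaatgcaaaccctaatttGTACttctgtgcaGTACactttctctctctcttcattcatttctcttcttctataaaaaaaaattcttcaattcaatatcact
ZIP2: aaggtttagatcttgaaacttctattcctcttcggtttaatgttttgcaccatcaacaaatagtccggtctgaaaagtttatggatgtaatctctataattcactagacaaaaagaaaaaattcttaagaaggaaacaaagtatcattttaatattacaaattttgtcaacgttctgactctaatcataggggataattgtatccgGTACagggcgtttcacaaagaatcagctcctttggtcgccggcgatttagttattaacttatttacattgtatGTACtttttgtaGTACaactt
FSD1: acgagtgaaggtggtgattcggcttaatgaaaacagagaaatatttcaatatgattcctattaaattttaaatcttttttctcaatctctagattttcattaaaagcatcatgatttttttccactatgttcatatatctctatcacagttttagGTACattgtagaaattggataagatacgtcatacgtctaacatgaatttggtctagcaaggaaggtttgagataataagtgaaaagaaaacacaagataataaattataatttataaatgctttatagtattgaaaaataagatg

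Sulphur genes were lower almost throughout. Of 13 tested genes for sulphate uptake, assimilation and the response to sulphur deficiency 12 were lower and none higher, with a median log2 change of -1.09, and 8 were at least 2-fold lower. The sulphate transporter gene SULTR1;2, the main route of sulphate into the root, measured 128, 138 and 116 CPM in Col-0 and 63.3, 58.4 and 49.0 CPM in bbx28-5 (-1.16 ± 0.0824, adjusted p = 1.18e-08). APR1, an adenosine phosphosulphate reductase gene at the controlled step of assimilation, measured 108, 91.8 and 110 CPM against 46.3, 50.2 and 49.4 CPM (-1.09 ± 0.0728, adjusted p = 5.03e-09). The groups did not overlap for either gene. SULTR2;1, a transporter of the vascular tissue, differed by -1.01 ± 0.0754 and LSU1, a small protein made under sulphur deficiency, by -2.34 ± 0.24. The member that did not pass was SIR, sulphite reductase, the step after APR1, at 327 ± 18.2 and 314 ± 11.5 CPM (-0.06 ± 0.0538). SIR and the genes SULTR1;1 (-1.59 ± 0.297) and SDI1 (-1.54 ± 0.191), which is induced by sulphur deficiency, are named here after their values were seen.

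Glucosinolates are sulphur-rich defence compounds, and the genes for making them fell in bbx28-5. Of 24 tested genes 21 were lower and 1 higher, with a median of -1.01, and 13 were at least 2-fold lower. The branch that builds on methionine fell furthest. MAM1, which lengthens the methionine chain, measured 28.9, 20.0 and 30.1 CPM in Col-0 and 2.63, 2.19 and 1.75 CPM in bbx28-5 (-3.57 ± 0.182, adjusted p = 1.5e-10). BCAT4, the aminotransferase before it, went from 5.08 ± 2.2 to 0.461 ± 0.0244 CPM (-3.45 ± 0.388, adjusted p = 3.27e-06). BCAT4 passed the expression filter through its Col-0 libraries, so it was tested only because it was high there. The count and median of the glucosinolate list describe the members tested and do not test the list. CYP83A1, which acts after chain lengthening, measured 19.8, 13.7 and 24.2 CPM in Col-0 and 1.6, 1.86 and 1.47 CPM in bbx28-5 (-3.54 ± 0.219, adjusted p = 1.83e-09). In each of these genes the lowest Col-0 library was several-fold above the highest bbx28-5 library.

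The entry enzyme of the methionine branch showed the same pattern at low counts. CYP79F1, named after its values were seen, held 132 counts over the Col-0 libraries and 2 over those of bbx28-5, a ratio of 61.3 after division by total counts (95% interval 16.6 to 512, counting error only). CYP79F1 too passed the expression filter only through its Col-0 libraries. Its close copy CYP79F2 went from 10.4 ± 1.79 to 1.52 ± 0.138 CPM (-2.77 ± 0.195). The tryptophan branch differed by less. CYP79B2 measured 126, 106 and 120 CPM in Col-0 and 52.9, 44.3 and 49.2 CPM in bbx28-5 (-1.27 ± 0.0759, adjusted p = 1.27e-09), and CYP83B1, its next step, went from 202 ± 12.2 to 99.9 ± 4.85 CPM (-1.02 ± 0.0603, adjusted p = 1.14e-09).

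Of the regulators of the pathway, also named after their values were seen, those of both branches were compared. MYB28, which activates the methionine branch, measured 43.8, 35.7 and 46.4 CPM in Col-0 and 37.8, 38.7 and 39.2 CPM in bbx28-5. These groups overlapped, and the difference did not pass (-0.13 ± 0.0824, adjusted p = 0.29). MYB29, its relative, fell from 4.21 ± 0.765 to 2.09 ± 0.3 CPM (-1.01 ± 0.219, adjusted p = 0.00199). MYB34 and MYB51, regulators of the tryptophan branch, differed by -0.47 ± 0.0707 and -0.58 ± 0.126. The myrosinase genes, whose products cut glucosinolates, did not share the fall. TGG1 did not pass (0.04 ± 0.0432), and TGG2 was the member that was higher, at 41.4 ± 1.02 and 69.7 ± 10.1 CPM (0.76 ± 0.0846, adjusted p = 3.11e-06).

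**Figure D3:**
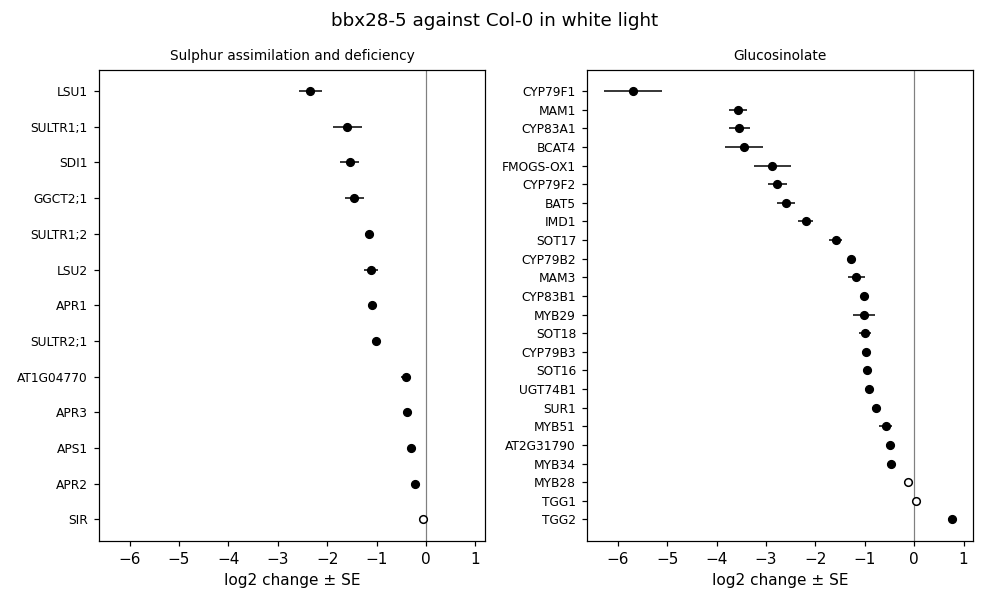
Log2 change of bbx28-5 against Col-0 in white light with its SE for every tested member of the sulphur and the glucosinolate lists, filled where the adjusted p was under 0.05. The points run from -5.69 for CYP79F1 to 0.76 for TGG2, and all filled points of the sulphur list lie below 0.

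Genes of the root barriers were lower in bbx28-5. Suberin is a lipid polymer and the Casparian strip a ring of lignin, and both seal the endodermis. Of 16 tested suberin genes 13 were lower and none higher (median -0.98), and of 15 Casparian strip genes 13 were lower and none higher (median -0.61). CYP86A1, which hydroxylates fatty acids for suberin, measured 56.9, 55.1 and 60.9 CPM in Col-0 and 9.63, 7.94 and 8.92 CPM in bbx28-5 (-2.70 ± 0.0856, adjusted p = 2e-13). FAR5, a reductase that makes suberin alcohols, differed by -1.91 ± 0.106, and CYP86B1, a hydroxylase of longer chains, by -1.37 ± 0.0959. ABCG6, a transporter of suberin parts, fell by 1.00 ± 0.0775 log2 units. No Col-0 library of these genes overlapped with bbx28-5. MYB93 and MYB53, regulators named after their values were seen, differed by -2.01 ± 0.182 and -1.49 ± 0.262. In the Casparian strip list, CASP1, a membrane protein that marks the strip domain, measured 37.5, 42.9 and 30.1 CPM against 18.5, 19.9 and 18.8 CPM (-0.95 ± 0.106, adjusted p = 3.15e-06). GSO1, the receptor kinase that monitors the barrier, differed by -0.60 ± 0.0865 and the peroxidase gene RCI3 by -0.61 ± 0.0797.

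Root hair genes were lower by smaller amounts. Of 21 tested members 16 were lower and none higher (median -0.52), among them PRP3, a wall protein, at 65.9 ± 4.68 and 44.8 ± 6.15 CPM (-0.55 ± 0.0839, adjusted p = 8.05e-05). RHD2, the oxidase that drives hair growth, went from 21.2 ± 2.96 to 14.0 ± 1.34 CPM (-0.59 ± 0.111, adjusted p = 0.000557), a call lost in the fit of all 12 libraries. Of the 16 falls those of PRP3 and, named after their values were seen, RSL1 (-1.78 ± 0.397), a bHLH factor of hair growth, and AGP3 (-0.55 ± 0.115), an arabinogalactan protein, held in every alternative. Of the 12 general root cell markers 2 were lower and 1 higher (median -0.18), together near the 26.3% called over all genes. PYK10, a root and hypocotyl glucosidase, measured 3780, 3720 and 3460 CPM in Col-0 and 3010, 2950 and 3110 CPM in bbx28-5 (-0.27 ± 0.0457, adjusted p = 0.000196), and SCR, a regulator of the endodermis, was higher by 0.33 ± 0.0639, a call lost in the fit of all 12 libraries. PHO1, which loads phosphate into the xylem, was the other lower marker (-0.33 ± 0.0623).

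The summed level of the 12 general root markers ran from 3650 to 3980 CPM in Col-0 and from 3140 to 3290 CPM in bbx28-5, with no marker at 0. PYK10 made up most of this sum, and the other 11 markers summed to 186 to 195 CPM in Col-0 and 182 to 192 CPM in bbx28-5, which overlap. The summed root hair list ran from 493 to 613 against 386 to 448 CPM, the Casparian strip list from 332 to 420 against 247 to 258 CPM and the suberin list from 583 to 640 against 364 to 388 CPM. The 7 stomatal markers had none called and sums of 87.6 to 96.7 against 88.4 to 91.2 CPM. The light harvesting and photosystem list, taken as the marker of green tissue, was also lower without overlap. Its sum ran from 123000 to 129000 CPM in Col-0 and from 113000 to 115000 CPM in bbx28-5. In RNA from whole seedlings, fewer cells of a type and less RNA per cell cannot be told apart. The part of a smaller share of root tissue in the falls of the root lists was not tested.

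**Figure D4:**
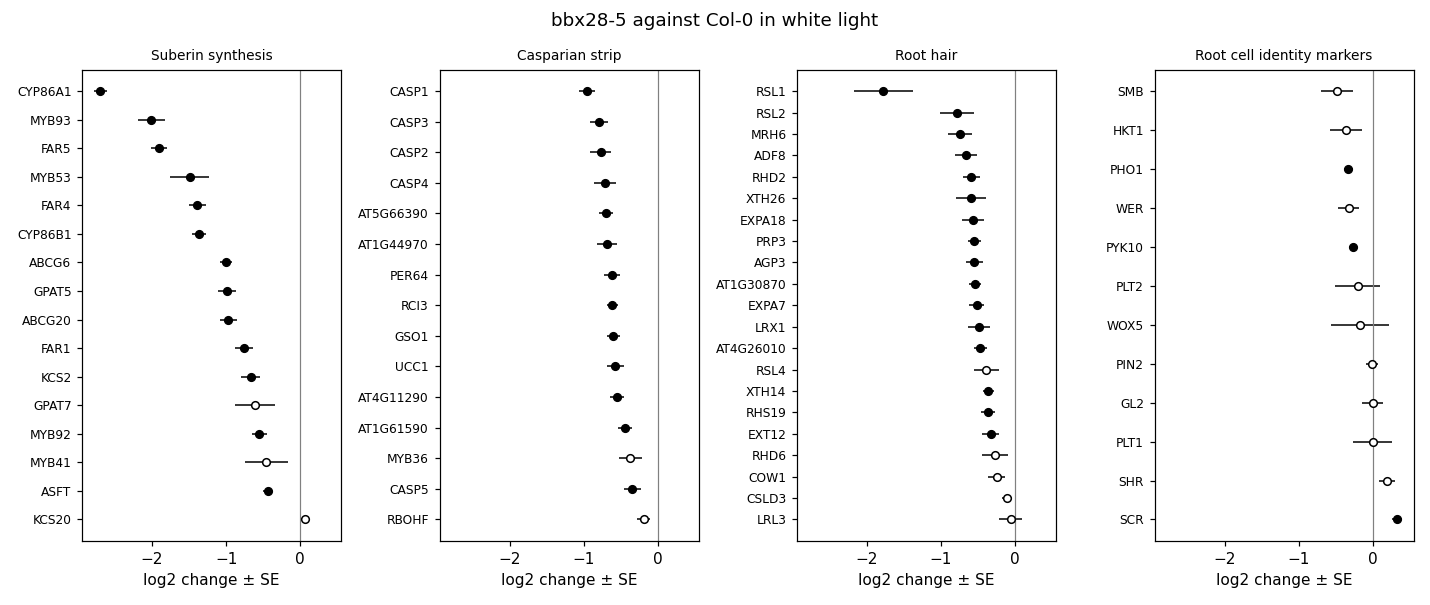
Log2 change of bbx28-5 against Col-0 in white light with its SE for the tested members of the suberin, Casparian strip, root hair and general root marker lists, filled where the adjusted p was under 0.05. The list medians are -0.98, -0.61, -0.52 and -0.18.

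Genes of other nutrients were also called, more of them lower than higher for iron. Of 22 tested genes for iron uptake and storage 11 were lower and 3 higher (median -0.41). F6H1, which makes iron-binding coumarins, measured 19.6, 19.1 and 13.4 CPM in Col-0 and 6.06, 4.54 and 4.6 CPM in bbx28-5 (-1.76 ± 0.159, adjusted p = 2.19e-07), and AHA2, the proton pump that acidifies the soil around roots, differed by -0.72 ± 0.067. FIT, the master regulator of iron uptake, and BHLH38 and BHLH39, its partners, were lower by 0.89, 1.50 and 1.50 log2 units (-0.89 ± 0.134, -1.50 ± 0.194 and -1.50 ± 0.169), and these were named after their values were seen. The 3 higher members were ferritin genes, which store iron. FER1 measured 77.9, 80.6 and 103 CPM in Col-0 and 145, 154 and 154 CPM in bbx28-5 (0.79 ± 0.081, adjusted p = 1.13e-06), FER4 differed by 0.99 ± 0.0953 and FER3, named after its values were seen, by 0.43 ± 0.0739.

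Phosphate transport was lower and nitrogen genes were divided. Of 8 tested phosphate starvation genes 6 were lower and 1 higher (median -0.68). The phosphate transporter gene PHT1;4 measured 30.5, 26.3 and 27.6 CPM in Col-0 and 11.2, 10.2 and 9.01 CPM in bbx28-5 (-1.46 ± 0.101, adjusted p = 7.95e-09), and SPX1, a phosphate sensor, differed by -1.01 ± 0.0973. The higher member, SQD1 (0.24 ± 0.0758), an enzyme of sulpholipid synthesis, is named for that reason, and its call was lost in some alternative. Of 11 tested nitrogen genes 4 were lower and 5 higher. NRT1.1, the nitrate transporter and sensor, measured 220, 211 and 176 CPM in Col-0 and 88.7, 102 and 81.3 CPM in bbx28-5 (-1.16 ± 0.0834, adjusted p = 1.32e-08). The nitrate reductase genes were higher, NIA1 from 247, 284 and 240 CPM to 436, 437 and 473 CPM (0.80 ± 0.0619, adjusted p = 2.94e-08) and NIA2 by 0.63 ± 0.0479. The other members that passed, named for that reason, were NIR1, nitrite reductase (0.48 ± 0.0503), the glutamate synthase gene GLU1 (0.40 ± 0.0468), the asparagine synthetase gene ASN2 (0.54 ± 0.0527), the nitrate transport genes NRT1.5 (-0.59 ± 0.0707) and NRT3.1 (-0.56 ± 0.0877) and the glutamine synthetase gene GLN1;1 (-0.79 ± 0.0681). Every nitrate transport gene that passed was thus lower, and both nitrate reductases and nitrite reductase were higher.

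Transcripts of seed reserves were higher in bbx28-5. Of 10 tested storage protein genes 8 were higher and none lower, with a median of 2.93, and all 8 were at least 2-fold higher. SESA3, a 2S albumin gene, measured 0.435, 0 and 0.64 CPM in Col-0 and 58.3, 20.1 and 60.2 CPM in bbx28-5 (6.91 ± 0.511, adjusted p = 1.9e-08). CRU2, a cruciferin gene, measured 0.942, 0 and 0.0711 CPM against 12.3, 3.08 and 9.83 CPM (4.56 ± 0.589, adjusted p = 1.47e-05). PAP85, a vicilin-like protein gene, measured 4.42, 0.905 and 4.48 CPM against 14.6, 20.5 and 22.6 CPM (2.51 ± 0.263, adjusted p = 1.49e-06). The Col-0 libraries were close to the floor for SESA3 and CRU2, and the bbx28-5 libraries varied severalfold. SESA3 and CRU2 passed the expression filter through their bbx28-5 libraries, so they were tested only because they were high there. The count and median of this list describe the members tested and do not test the list. CRU3, named after its values were seen, shows the spread of Col-0, with 34.6, 0.164 and 2.99 CPM against 112, 59.0 and 122 CPM, and its call was lost with DESeq2 and in the fit of all 12 libraries. Albumin genes are close copies, and how reads that match several were counted is not given.

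Oil body and maturation genes were more mixed. Of 15 tested members 8 were higher and 2 lower (median 0.89). OLEO4 and OLEO1, oleosins that coat oil bodies, rose by 3.70 ± 0.303 and 2.29 ± 0.301 log2 units. M10, a late embryogenesis abundant protein gene, rose from 0.0962 ± 0.111 to 3.97 ± 1.62 CPM (5.18 ± 0.546, adjusted p = 1.56e-06). It too passed the expression filter only through its bbx28-5 libraries. The lower members, named for that reason, were M17 (-1.20 ± 0.321), with a call lost in some alternative, and the dormancy gene DOG1 (-0.62 ± 0.139). Genes of this list that respond to abscisic acid stood apart in Col-0 replicate 3. RAB18, named for that reason, measured 33.1, 23.7 and 285 CPM in Col-0 and 40.1, 53.3 and 74.8 CPM in bbx28-5, and its difference did not pass (-1.04 ± 0.566, adjusted p = 0.194). Without Col-0 replicate 3 RAB18 was higher in bbx28-5 by 0.96 and passed. The summed level of the storage list was 151, 64.2 and 61.9 CPM in Col-0 and 312, 215 and 365 CPM in bbx28-5. That of the oil body and maturation list was 91.9, 67.4 and 376 CPM in Col-0 and 116, 144 and 184 CPM in bbx28-5. The groups overlapped for this second sum, and its highest value was that of Col-0 replicate 3.

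The glyoxylate cycle enzyme genes ICL, isocitrate lyase, and MLS, malate synthase, were higher in every bbx28-5 library. ICL measured 141, 154 and 158 CPM in Col-0 and 463, 578 and 590 CPM in bbx28-5 (1.85 ± 0.0767, adjusted p = 7.42e-12). MLS measured 36.9, 38.6 and 38.9 CPM in Col-0 and 104, 112 and 132 CPM in bbx28-5 (1.60 ± 0.0799, adjusted p = 1.12e-10). Of 15 tested genes for lipid mobilisation 5 were higher and none lower (median 0.11), and the other 3, LACS7 (0.28 ± 0.0642), ACX1 (0.23 ± 0.066) and MFP2 (0.16 ± 0.0549), enzymes of fatty acid breakdown, had calls lost in the fit of all 12 libraries or elsewhere. MFP2 is named because so few members passed. Unlike storage protein transcripts, ICL and MLS varied little among Col-0 libraries.

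Most of the carbon starvation genes were higher. Of 15 tested genes induced by darkness or low sugar 10 were higher and 1 lower (median 0.45). BT2, a BTB and TAZ domain protein gene, measured 25.1, 30.9 and 22.8 CPM in Col-0 and 80.2, 78.6 and 79.7 CPM in bbx28-5 (1.60 ± 0.084, adjusted p = 2.12e-10). BCAT2, an enzyme of branched-chain amino acid breakdown, went from 11.5 ± 0.9 to 26.6 ± 1.96 CPM (1.20 ± 0.0961) and SEN1, a senescence and darkness marker, from 29.0 ± 6.61 to 59.5 ± 10.1 CPM (1.05 ± 0.125). The groups did not overlap for any of the 3. The lower member, TPS5 (-0.22 ± 0.0738), a trehalose phosphate synthase-like gene named for that reason, lost its call in some alternative. Of 10 starch degradation genes 1 was higher, the beta-amylase-like gene BAM9 (0.47 ± 0.0685), and 4 were lower, of which DPE1 (-0.33 ± 0.0637) kept its call in every alternative while SEX1 (-0.26 ± 0.0538), DPE2 (-0.24 ± 0.0527) and ISA3 (-0.29 ± 0.0705) did not. ISA3 is named because so few members passed.

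Among light genes, most photoprotection and chlorophyll synthesis genes were higher, and more antenna and photosystem genes were lower than higher. Of 12 tested photoprotection genes 10 were higher and none lower (median 0.27). ELIP2, an early light-induced protein of the thylakoid, measured 17.0, 14.3 and 15.5 CPM in Col-0 and 56.8, 56.8 and 59.6 CPM in bbx28-5 (1.88 ± 0.0751, adjusted p = 4.38e-12). ELIP1 measured 21.4, 15.9 and 28.8 CPM against 59.2, 61.0 and 68.3 CPM (1.50 ± 0.127, adjusted p = 9.56e-08). BCH1 and BCH2, hydroxylases that make xanthophylls, differed by 0.74 ± 0.0687 and 0.47 ± 0.0619. ELIP1 and ELIP2 thus changed more than any other member of the list. ELIP1, ELIP2, BCH1, BCH2 and LIL3:1 (0.40 ± 0.0558), named after its values were seen, kept their calls in every alternative, and the other 5 did not.

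Of 22 tested chlorophyll synthesis genes 14 were higher and 2 lower (median 0.23). CHLG, chlorophyll synthase, measured 136, 122 and 136 CPM in Col-0 and 181, 199 and 189 CPM in bbx28-5 (0.53 ± 0.0597, adjusted p = 3.32e-06). The protochlorophyllide oxidoreductase genes were the 2 lower members. PORB measured 310, 301 and 349 CPM in Col-0 and 140, 133 and 134 CPM in bbx28-5 (-1.24 ± 0.06, adjusted p = 7.15e-11), and PORC, named after its values were seen, differed by -0.23 ± 0.0526, a call lost in the fit of all 12 libraries. PORA, the third oxidoreductase gene, did not pass (0.79 ± 0.545). Of the 14 rises those of CHLG and CHLD (0.33 ± 0.0511), a magnesium chelatase subunit named after its values were seen, held in every alternative, and the others were lost in the fit of all 12 libraries or elsewhere. Of the regulators of plastid development 5 of 10 were higher and none lower (median 0.20), namely the plastid sigma factor genes SIG5 (0.56 ± 0.0619), SIG6 (0.43 ± 0.0571), SIG2 (0.36 ± 0.0518) and SIG1 (0.18 ± 0.0545) and the GATA factor gene GNC (0.32 ± 0.0891). The calls of SIG1, named because so few passed, and GNC were lost in some alternative.

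Antenna and photosystem genes depended on the treatment of transcript length. Of 34 tested members 17 were lower and 1 higher (median -0.12), and with transcript length offsets 8 were lower and 2 higher. LHCB1.4 measured 3400, 3400 and 3200 CPM in Col-0 and 1710, 1670 and 1650 CPM in bbx28-5 (-0.99 ± 0.0444, adjusted p = 2.06e-11), and LHCB2.3 went from 1940 ± 96.2 to 1280 ± 50.5 CPM (-0.61 ± 0.0488). Both are proteins of the main antenna, and members of this family share sequence, so reads may be split between copies. LHCB7, a minor relative, was the higher member, from 26.2 ± 1.18 to 37.0 ± 3.5 CPM (0.50 ± 0.0791). Of the 17 falls only those of LHCB1.4 and LHCB2.3 held in every alternative. Of 20 Rubisco and Calvin cycle genes 6 were higher and 1 lower, from -0.37 to 0.38 over all members. The lower member was RBCS2B (-0.37 ± 0.0488) and the member that rose most was RBCS1B (0.38 ± 0.0591), both Rubisco small subunit genes of near-identical sequence, with calls lost in the fit of all 12 libraries or elsewhere.

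Among regulators of light signalling more genes were called higher than lower. Of 14 genes for COP1, its SPA partners, HY5 and related factors 8 were higher and 1 lower (median 0.29). HYH, the close relative of HY5, measured 30.1, 23.0 and 25.2 CPM in Col-0 and 41.7, 43.0 and 37.2 CPM in bbx28-5 (0.64 ± 0.0891, adjusted p = 3.48e-05). LAF1, a MYB factor of phytochrome A signalling and the lower member, differed by -1.60 ± 0.373 and was named after its values were seen. RUP2 and RUP1, repressors of ultraviolet-B signalling and targets of HY5, differed by 0.87 ± 0.129 and 0.66 ± 0.125. The other rises, all in genes for COP1, SPA proteins and DET1, were lost in some alternative. HY5 itself, named after its values were seen, stood at 15.3 ± 0.645 and 16.9 ± 0.785 CPM and did not pass (0.14 ± 0.0936, adjusted p = 0.291). Of 10 photoreceptor genes 1 was called, PHYB at 0.20 ± 0.0629, and that call was lost with transcript length offsets and without some single libraries. Of 6 phytochrome-interacting factor genes 3 were higher, PIF1 by 0.42 ± 0.0802, PIF7 by 0.34 ± 0.0679 and UNE10 by 0.38 ± 0.0825, the last lost in the fit of all 12 libraries.

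Of 12 shade-induced bHLH and homeodomain genes 2 were higher and 1 lower (median -0.14), and together this is near the 26.3% called over all genes. The lower gene was PAR1, an atypical bHLH protein, at 8.91, 11.9 and 8.67 CPM in Col-0 and 5.11, 4.54 and 4.69 CPM in bbx28-5 (-1.03 ± 0.155, adjusted p = 7.21e-05). ATHB2, a homeodomain factor of the shade response, did not pass (-0.24 ± 0.0986, adjusted p = 0.0869). The 2 higher genes, KDR and PRE1, lost their calls without several single libraries.

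In the BBX family 7 of 26 tested members were higher and 5 lower (median 0.11), and with transcript length offsets 11 and 2. Beside BBX28, the larger rises were those of BBX32, from 3.41, 4.44 and 4.62 CPM to 8.17, 7.38 and 9.65 CPM (1.01 ± 0.164, adjusted p = 0.000151), BBX18, from 17.2 ± 2.52 to 27.1 ± 1.33 CPM (0.65 ± 0.0981), and BBX25, from 52.8 ± 1.3 to 74.0 ± 3.89 CPM (0.49 ± 0.0623). BBX25 lost its call in the fit of all 12 libraries. BBX32 and BBX25 are known as repressors of light-driven development. BBX16, BBX19 and BBX30 were the other higher members (0.38 ± 0.0835, 0.28 ± 0.0915 and 0.48 ± 0.146), each with a call lost in some alternative. BBX21, BBX22 and BBX24, which are known to act with or on HY5, differed by -0.25 ± 0.0689, -0.20 ± 0.0664 and 0.02 ± 0.0511, the first 2 with calls that were lost with transcript length offsets and without single libraries. BBX17 was lower, from 5.36 ± 0.472 to 3.10 ± 0.918 CPM (-0.78 ± 0.204), a call lost without bbx28-5 replicate 2, and AT2G47890 (-0.34 ± 0.0996) and BBX27 (-0.24 ± 0.0714) were the other lower members, also with calls lost in some alternative.

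Several clock genes of the morning were higher. Of 26 tested clock genes 10 were higher and none lower (median 0.18). LHY, a MYB-related factor that peaks at dawn, measured 13.1, 13.4 and 11.9 CPM in Col-0 and 22.9, 26.3 and 24.3 CPM in bbx28-5 (0.93 ± 0.0934, adjusted p = 8.32e-07). CCA1, its partner, measured 122, 133 and 114 CPM against 169, 174 and 175 CPM (0.49 ± 0.0596, adjusted p = 8.09e-06), and RVE4, a relative, differed by 0.42 ± 0.0579. These calls and that of CDF2 (0.59 ± 0.162), a Dof factor named after its values were seen, held in every alternative, and the other 6 did not. TOC1, an evening gene named after its values were seen, did not pass (-0.02 ± 0.0833, adjusted p = 0.863).

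Among hormone genes, those of jasmonate were mostly lower. Of 15 tested jasmonate genes 9 were lower and 1 higher (median -0.29). VSP1, a vegetative storage protein induced by jasmonate, measured 10.2, 8.22 and 9.39 CPM in Col-0 and 2.92, 2.11 and 3.12 CPM in bbx28-5 (-1.77 ± 0.173, adjusted p = 5.89e-07), and AOC2, an enzyme of jasmonate synthesis, measured 89.4, 88.4 and 98.3 CPM against 54.2, 55.5 and 56.2 CPM (-0.74 ± 0.0624). JAZ1, a repressor and early response gene, differed by -0.80 ± 0.101. JAZ9, a relative and the higher member, is named for that reason (0.43 ± 0.0702), and its call was lost in some alternative. Of 4 tested salicylate genes 2 were lower, PR1 by 1.27 log2 units (-1.27 ± 0.263) and EDS5 by 0.90 (-0.90 ± 0.125).

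Of 23 auxin response genes 6 were lower and none higher (median -0.15), together near the 26.3% called over all genes. GH3.3, which conjugates auxin, measured 24.1, 28.7 and 18.1 CPM in Col-0 and 15.0, 11.9 and 10.3 CPM in bbx28-5 (-0.91 ± 0.149, adjusted p = 0.000159). Of 18 genes for auxin synthesis and transport 2 were higher and 5 lower. Higher were TAR2, an enzyme of auxin synthesis, at 0.64 ± 0.0946 and the efflux carrier gene PIN3 at 0.39 ± 0.0557, and lower were PIN7 at -0.35 ± 0.0618, the influx carrier gene LAX3 at -0.58 ± 0.0854 and the flavin monooxygenase genes YUC3, YUC5 and YUC8 at -0.52 ± 0.185, -1.34 ± 0.268 and -0.57 ± 0.12. The calls of PIN3, LAX3 and YUC3 were lost in some alternative, and the last 3 genes are named because so few passed. Of 20 cell wall expansion genes 3 were higher and 7 lower. XTH17, a xyloglucan-modifying enzyme, went from 46.9 ± 4.81 to 22.8 ± 2.29 CPM (-1.03 ± 0.0872), whereas the expansin gene EXPA10 went from 16.9 ± 1.32 to 33.2 ± 2.43 CPM (0.97 ± 0.0858). The other higher members, EXPA1 (0.56 ± 0.0501) and XTH22 (0.38 ± 0.102), lost their calls in some alternative, and XTH22 is named because so few rose. Gibberellin genes had 1 higher and 4 lower of 20, together also near the 26.3% called over all genes. Among the lower were the catabolic genes GA2OX8 at -1.18 ± 0.235 and GA2OX6 at -0.83 ± 0.14. GID1A, a receptor gene, was higher (0.29 ± 0.105) and GA2OX1 (-0.72 ± 0.226) and GAI (-0.20 ± 0.0698), the latter named because so few passed, were lower, all with calls lost in some alternative. Brassinosteroid genes had 2 lower of 13, a smaller share called than over all genes. These were the synthesis genes BR6OX1 at -1.01 ± 0.165 and DWF4 at -0.22 ± 0.0751, the latter with a call lost in some alternative. Ethylene genes had 1 higher and 4 lower of 11, with the synthesis genes ACS2 at -1.44 ± 0.371 and ACS5 at -1.13 ± 0.253 lower in every alternative, and cytokinin genes had 1 higher and 3 lower of 12, namely the response regulator genes ARR4 (0.19 ± 0.066), ARR3 (-0.58 ± 0.176) and ARR16 (-0.64 ± 0.211) and the oxidase gene CKX5 (-0.60 ± 0.199), all with calls lost in some alternative. The other ethylene members, ACO1 (0.60 ± 0.177), ACS8 (-0.62 ± 0.173) and ACO4 (-0.18 ± 0.0564), lost their calls in some alternative too, and ACO4 is named because so few passed. None of the 7 reference genes passed, although 2 did with transcript length offsets, and UBQ10, a ubiquitin gene, stood at 1310 ± 22.3 and 1390 ± 12.4 CPM.

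Abscisic acid, cold and drought genes had 2 higher and 6 lower of 17 (median -0.46), and Col-0 replicate 3 weighed on them. KIN1, a cold-induced gene, measured 10.7, 8.88 and 54.6 CPM in Col-0 and 5.98, 4.62 and 5.61 CPM in bbx28-5 (-2.21 ± 0.51, adjusted p = 0.00326). Without Col-0 replicate 3 its log2 change was -0.86 and still passed. ERD10, a dehydrin gene, was closer among libraries, with 86.0, 92.3 and 98.8 CPM against 62.9, 58.5 and 59.6 CPM (-0.61 ± 0.065, adjusted p = 1.68e-06). The higher members were CYP707A2 (0.49 ± 0.117), which breaks down abscisic acid and is named because so few rose, and the phosphatase gene HAB1 (0.46 ± 0.0802), whose call was lost in some alternative. Heat shock genes had 3 higher and 2 lower of 12, with HSP17.6II, a small heat shock protein gene, at 1.53 ± 0.261. HSP17.6A (1.82 ± 0.467), AT1G53540 (1.26 ± 0.355), HSP70 (-0.32 ± 0.0797) and MBF1C (-0.40 ± 0.125), the last named because so few passed, lost their calls in some alternative. Aquaporin genes had 2 higher and 5 lower of 18, and with transcript length offsets 8 and 5. The aquaporin genes PIP2;4, TIP2;2 and TIP2;3 were lower by similar amounts (-0.70 ± 0.128, -0.67 ± 0.0938 and -0.70 ± 0.137). The other calls in this list were lost in some alternative. Cell cycle genes had 4 lower of 13, of which the cyclin gene CYCB1;4 (-0.54 ± 0.114) kept its call in every alternative and CYCB1;2 (-0.48 ± 0.112), CYCB2;2 (-0.56 ± 0.173) and CDKB2;1 (-0.34 ± 0.0926) did not. Touch and rapid stress genes had 4 lower of 8, TCH3, a calmodulin-like gene (-0.74 ± 0.0997), WRKY33 (-0.47 ± 0.0921), ERF5 (-0.55 ± 0.165) and ERF6 (-0.60 ± 0.189), the last 2 with calls lost in some alternative. Phenylpropanoid and lignin precursor genes had 1 higher and 5 lower of 16, with 4CL2, a coumarate ligase, at -0.64 ± 0.0913 and CAD5, an alcohol dehydrogenase, at -0.40 ± 0.0637. Genes for wax and cutin had 4 higher and 1 lower of 17, with CER3, a gene of wax synthesis, at 0.49 ± 0.0538 and CER4, a reductase, at -0.58 ± 0.154, the second with a call lost in some alternative. The tested genes of the flavonoid list had 1 higher and none lower of 19, against 26.3% called over all genes. That call, on the glucosyltransferase gene UGT78D2 at 0.25 ± 0.0736, was lost with DESeq2, in the fit of all 12 libraries and without some single libraries. Some flavonol synthase relatives outside this list were called at least 2-fold lower.

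Outside the lists, the largest falls included genes with little annotation. AT1G75945, an uncharacterized protein gene, held 142 counts over the Col-0 libraries and 3 over those of bbx28-5, a ratio of 44.0 (95% interval 14.7 to 216, counting error only). AT5G49350, annotated as a glycine-rich protein, measured 12.5, 13.7 and 17.6 CPM in Col-0 and 1.6, 1.05 and 0.827 CPM in bbx28-5 (-3.61 ± 0.211, adjusted p = 9.57e-10). AK3, an aspartate kinase gene on the route to methionine and threonine, went from 6.81 ± 0.847 to 0.678 ± 0.237 CPM (-3.32 ± 0.252). AT1G75945 and AK3 passed the expression filter through their Col-0 libraries, so they were tested only because they were high there. Among the largest rises was AT1G68250, also uncharacterized, at 2.9, 0.329 and 5.19 CPM in Col-0 and 13.5, 38.3 and 37.1 CPM in bbx28-5 (3.33 ± 0.407, adjusted p = 8.13e-06). Its libraries varied widely within Col-0 without overlapping those of bbx28-5. Of the 753 genes in the lists 698 were tested. Among those with too few counts for the test, COPT3, LHCB1.5, MYC2, AMT1;1, NRT2.2, NRT2.4, PDF1.2A, BBX2, BBX9, BBX26, HSD1 and AT3G12900 were listed at 0 in all 6 libraries. How reads that overlap several genes or match close copies were counted is not given, so a listed 0 may come from the counting and does not show that a transcript was missing. The storage albumin gene SESA4 held 2 counts over the Col-0 libraries and 18 over those of bbx28-5, and ERF1, an ethylene response gene, 13 and 1.

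The shade libraries allowed the white light differences to be looked at in seedlings that played no part in calling them. Of 18286 genes tested in both lights, 620 were higher in bbx28-5 in both. This is 26.6% of those higher in white light, against 9.63% higher in shade over all these genes. It is also 35.2% of those higher in shade, for which the background is the 2335 of 18286 genes higher in white light. Lower in both were 954, or 37.7% of those lower in white light, against 10.2% lower in shade over all these genes. It is also 51.2% of those lower in shade, for which the background is the 2530 of 18286 genes lower in white light. Opposite directions were found for 31 and 83 genes. Of the 134 genes at least 2-fold higher in white light 100 were tested in shade, where 77 were called higher and 0 lower. Of the 529 at least 2-fold lower 401 were tested in shade, where 272 were called lower and 2 higher. Large white light differences that could be tested in shade were thus mostly found again, and the others had no such test. The counts of repeats moved with scaling: with total counts 308 were higher in both and 1450 lower in both, and without bbx28-5 shade replicate 2 the counts were 1227 and 1482. That library correlated with its group mates at 0.9641 and 0.965, against 0.9923 to 0.9941 for the other pairs within the shade groups.

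**Figure D5:**
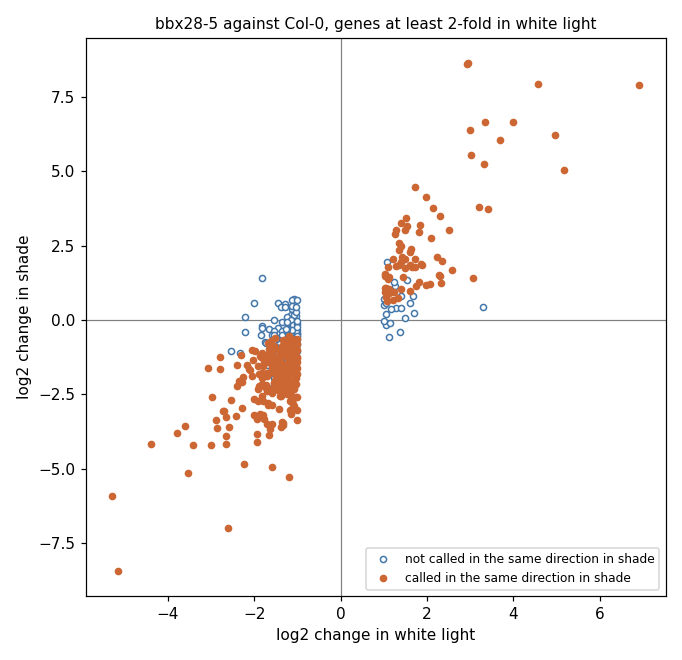
Log2 change of bbx28-5 against Col-0 in white light (horizontal) and in shade (vertical) for the 501 genes that were at least 2-fold different in white light and were tested in both lights. Filled points were called in the same direction in shade, 77 of 100 higher and 272 of 401 lower genes.

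Most copper, suberin and storage protein genes were called in the same direction in shade. Of 11 copper uptake genes 8 were lower there too (median -1.82), of 16 suberin genes 15 were lower (median -2.27), and of 10 storage protein genes 8 were higher (median 6.45). The shade fit used the same filter, so storage genes near the floor in Col-0 could pass it through bbx28-5 alone. Their count and median describe the members tested and do not test the list. CSD2 measured 18.0 ± 0.815 CPM in Col-0 and 243 ± 51.0 in bbx28-5 in shade (3.75 ± 0.177, adjusted p = 0.000124), and FRO5 33.2 ± 10.0 and 1.83 ± 1.11 CPM (-4.17 ± 0.396). ICL differed by 1.90 ± 0.279 and ELIP2 by 1.84 ± 0.324. The light harvesting list did not repeat its falls, with 5 higher and none lower of 34 in shade. Other lists repeated in part. Of 15 Casparian strip genes tested in shade 9 were lower (median -0.60) and of 12 sulphur genes 5 (median -0.61). Of 20 root hair genes only 3 were lower, near the 10.2% of all genes called lower in shade, while their median was -0.52 in both lights. Of the glucosinolate genes only 14 could be tested in shade, with 8 lower and 1 higher. Touch and rapid stress genes had 4 higher and 1 lower of 8 in shade, against 4 lower in white light. The interaction described next passed for 4 touch genes, 5 sulphur genes and 7 light harvesting genes, and for none of the root hair and Casparian strip genes.

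The difference between the genotype effects in shade and in white light was tested by an interaction term over all 12 libraries, which called 2032 of 19711 genes, or 10.3%. That number was 3120 with total counts and 4545 without bbx28-5 shade replicate 2. ABCG6 fell by 1.00 log2 units in white light and differed by -3.36 in shade (interaction -2.29 ± 0.233, adjusted p = 0.000133). NIA1 was higher in white light and lower in shade (0.80 against -1.57, interaction -2.31 ± 0.195, adjusted p = 4.34e-05). FER1 differed by 0.79 in white light and 2.18 in shade (interaction 1.46 ± 0.154, adjusted p = 0.000161). For CSD2, CSD1 and CCS the interaction did not pass, with adjusted p of 0.191, 0.899 and 0.398.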

How the data were processed

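The authors deposited raw HTSeq counts per gene for whole seedlings of Col-0 and bbx28-5, from stranded mRNA libraries, per the labels. HISAT, SAMtools, HTSeq and edgeR and the TAIR10 build are named in the submitters' processing notes, without versions. The strand setting and the handling of reads with more than 1 match are not given in the sources used here. A second deposited table holds log2 CPM of the same counts, and was used only to check the counts and to fix an alternative set of genes.

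Counts of the 6 white light libraries were filtered with edgeR's expression filter, scaled by TMM and tested with edgeR 4.0.16 (R 4.3.3) by quasi-likelihood F tests, with Benjamini-Hochberg adjustment over all 19360 genes and a threshold of 0.05. The filter asks for enough counts in as many libraries as a group holds. A gene near the floor in either genotype can therefore pass it through the other alone. Each SE was derived from the log2 change and its F statistic. The 3 biological replicates named by the design need not be separate batches of plants, so p-values measure the spread between these samples. Intervals and floors cover counting error only. The same fit on the 6 shade libraries, and an interaction term over all 12, gave the comparisons with shade. The scripts were tested on simulated data.

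BBX28 was named first, then the 10 largest rises and falls among called genes whose groups did not overlap and whose mean log2 CPM reached 1. Of each of 46 lists up to 4 members with the smallest adjusted p were named, and all members of the copper lists, the BBX family and the reference genes could be. Other genes were chosen after their values were seen and are said to be so. The members and lists were chosen with earlier results of these data known. Alternatives were median-ratio and total count scaling, DESeq2 1.42.0, a fit of all 12 libraries, no low-count filter, the genes of the normalized table, a replicate block, offsets for transcript length and leaving out each library. Gene IDs matched the annotation for 32548 of 32833 rows. Sequences and positions are from RefSeq, assembly TAIR10.1, read through the locus tag, since the deposited tables hold no coordinates.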

Additional observations from a re-analysis of the deposited data

Results flagged for a closer look

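The genes below were set apart because the interaction term over all 12 libraries passed at an adjusted p under 0.05, so that the genotype effect in shade differed from that in white light. This count of genes depends on scaling and on bbx28-5 shade replicate 2, as given in the next section. For the first genes the log2 change in white light, that in shade and their difference in the interaction fit are given in this order. Called in opposite directions were ERD10 (-0.61, 0.61 and 1.29), BBX27 (-0.24, 0.69 and 1.00), NIA1 (0.80, -1.57 and -2.31) and GH3.3 (-0.91, 0.47 and 1.46). So were TCH3 (-0.74, 1.12 and 1.93), AT2G47890 (-0.34, 0.77 and 1.18), HSP70 (-0.32, 1.34 and 1.73) and MBF1C (-0.40, 1.07 and 1.54). SIG5 was too (0.56, -0.77 and -1.26).

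In the same direction but further from 0 in shade were NRT1.5 (-0.59, -1.11 and -0.45), XTH17 (-1.03, -2.15 and -1.05), CDKB2;1 (-0.34, -1.08 and -0.66) and CYCB1;4 (-0.54, -2.56 and -1.95). This also held for FER4 (0.99, 1.71 and 0.79), DPE2 (-0.24, -0.73 and -0.42), CCA1 (0.49, 1.25 and 0.83) and 4CL2 (-0.64, -1.54 and -0.83). This also held for FAR5 (-1.91, -3.27 and -1.29), FER3 (0.43, 1.41 and 1.05), TPS5 (-0.22, -1.18 and -0.89) and CER4 (-0.58, -2.61 and -1.97). This also held for FER1 (0.79, 2.18 and 1.46), CYCB1;2 (-0.48, -1.99 and -1.44) and CYP86B1 (-1.37, -3.43 and -1.99). ABCG6 fell by 1.00 in white light and differed by -3.36 in shade, with a difference of -2.29. This also held for XTH22 (0.38, 1.26 and 0.96), LAC17 (-0.35, -1.28 and -0.86) and MYB34 (-0.47, -1.42 and -0.88). Closer to 0 in shade were FSD1 (-1.29, -0.69 and 0.67) and PORB (-1.24, -0.83 and 0.48).

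For genes that passed in white light and not in shade, the log2 effect in shade minus that in white light was different from 0 as follows. The effect differed for PORC by 0.70, GAI by 0.53, NIA2 by -0.79, EXPA1 by -1.37, PETE1 by 0.70 and SULTR1;2 by 0.95. It differed for NIR1 by -0.77, BBX18 by -0.78, FIT by 1.00, LHCB1.4 by 0.70, WRKY33 by 0.59 and PAR1 by 1.24. It differed for BT2 by -0.97, SCR by -0.56, SPX1 by 0.95, DOG1 by 0.92, NRT3.1 by 0.96 and ASN2 by -0.89. TOC1 passed in shade only, with a difference of 0.61. MAM1, which had too few counts in shade for the test there, differed by 3.98 in the interaction fit. With so few counts a genotype effect in shade may not have been detectable. The value for MAM1 therefore does not show that its genotype effect differed between the lights.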

How the results depend on the processing

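With all 12 libraries in the fit 1947 genes were called, 749 higher and 1198 lower, and 1938 of them were also called in the fit of 6. Leaving out each white light library gave 3937 to 5080 called genes, 1850 to 2334 higher and 2087 to 2746 lower, 121 to 192 at least 2-fold higher and 486 to 587 at least 2-fold lower. DESeq2 called 3770, and the other scalings, the unfiltered table and transcript length offsets called 5032 to 5499. What a replicate number shares is not given in the labels. Residuals of same-numbered libraries correlated at 0.0243, -0.0134 and 0.0952. With so few libraries per group these values cannot settle whether the numbers pair the samples. A fit with the replicate block called 5415 genes, 2539 higher and 2876 lower, and left every one of the 221 genes named in the text on its side of the threshold.

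Counts that involve the shade libraries moved most. Without bbx28-5 shade replicate 2, the calls higher in both lights, lower in both, higher then lower and lower then higher numbered 1227, 1482, 122 and 187. With total counts they numbered 308, 1450, 128 and 47. With transcript length offsets in both fits, an alternative chosen after seeing the data, 1379 were higher in both and 63 higher then lower. The interaction called 3120 genes with total counts (479 up and 2641 down) and 4545 without that library (3110 and 1435), and 1527 with the block. The cause was not tested.

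For the 221 genes, 2862 of 3094 values under an alternative kept direction and side of the threshold, 225 lost the call, 6 gained one and 1 reversed. The reversal was RAB18, at 0.96 without Col-0 replicate 3, and -1.52 to 0.96 over the libraries left out. Losses were most frequent in the fit of all 12 libraries, with 64 genes. Genes near the floor of 0.213 to 0.276 CPM carry few counts, and differences there may not have been detectable.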
